A study of Mus musculus with 25 samples.

Results

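Transcripts of 10 genes of nuclear factor kappa B (NF-kB) signalling were measured in the prefrontal cortex (PFC) of stressed male mice. The genes were chosen by symbol: the subunits Nfkb1, Nfkb2 and Rela, the inhibitor Nfkbia, the receptor Tnfrsf1a, the cytokines Tnf, Il1b and Ccl2, and the adhesion molecules Vcam1 and Icam1. All 10 were found among the 23990 genes of the expression table. The 5 libraries used came from C57BL/6 wild-type males, 10 weeks old, that underwent social defeat stress, a paradigm in which mice are exposed to an aggressor, and received vehicle before and during it. The labels name 25 samples in 6 groups: stress with dihydrocaffeic acid and malvidin-glucoside (a phenolic acid and an anthocyanin), stress with vehicle, and control, each in males and females. Each column of the table is headed by a letter with a running number. Of these letters, the single one that reaches 5 was tied to stressed males given vehicle, the single group of 5. The other 20 columns were not used, so neither stress, treatment nor sex was compared, and all comparisons are between genes or between the 5 libraries of that group. Nothing in the labels says that these libraries came from separate animals, so the spread between them may be technical in part.

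NF-kB is a family of transcription factors that act as pairs of subunits. Nfkb1 and Nfkb2 encode precursors that are processed to the DNA-binding subunits p50 and p52, and Rela encodes p65, which activates transcription. Nfkbia encodes IkB-alpha, which holds NF-kB dimers in the cytoplasm, is degraded after signals such as TNF or interleukin-1 beta, and is itself an NF-kB target gene. Tnf, Il1b, Ccl2, Vcam1 and Icam1 are also known NF-kB target genes, and in brain they are linked to microglia and to activated vessel walls.

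The libraries held between 34565147 and 44265039 reads in genes and had reads for 21790 to 22277 genes each. Levels are given as CPM (reads per 1e+06 reads of effective library size) within 1 gene and as RPKM (CPM per kilobase of exon) between genes. The table fitted whole numbers of reads, but low numbers were mostly even: 69.4 to 72.2% of values between 1 and 20 reads were even, against 52.6 to 53.6% of values between 101 and 1000. Tests of spread are therefore given in 2 forms, with each read as 1 event and with 2 reads as 1 event. The 6 neuron markers summed to between 5854 and 7578 CPM, and the 5 choroid plexus markers to between 1.57 and 3.19 CPM, with Ttr at 0 in replicates 1 and 3, Kcne2 in replicate 4 and Folr1 in replicate 5. The 9 leptomeningeal and fibroblast markers summed to 99.6 CPM in replicate 4, against 33.5 to 62.3 CPM in the other libraries. The 8 neutrophil markers summed to 24.7 CPM in replicate 4, against 8.0 to 10.2 CPM in the others. Of these, Csf3r alone had 6.68 to 7.89 CPM in the others and did not share the rise, with 7.25 CPM in replicate 4. Mmp8 was at 0 in replicates 1, 2 and 5, Ngp in replicates 3 and 5, Camp in replicate 2 and Ltf in replicate 5. The 5 oligodendrocyte markers were lowest in replicates 4 and 5, at 3761 and 3813 CPM, against 5785 to 8240 CPM in the other 3. In whole tissue, fewer cells of a type and less RNA per cell cannot be told apart.

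Of the 3 subunits, Rela had the highest level per length in every library, at 6.98 ± 0.819 RPKM (SD, n = 5), followed by Nfkb1 at 1.37 ± 0.132 RPKM and Nfkb2 at 0.773 ± 0.0919 RPKM. Rela (ENSMUSG00000024927, chr19:5637483-5648130, plus strand, GRCm38) measured 22.4, 23.1, 23.6, 17.4 and 20.7 CPM in replicates 1 to 5. Replicate 4 was lowest and the other 4 lay close together. The spread of Rela exceeded counting error, with an adjusted p of 3.4e-08 in a chi-square test with Benjamini-Hochberg adjustment over all genes tested, and of 0.000893 with 2 reads as 1 event. Its coefficient of variation beyond counting error (CV) was 11.2%, and 4.62% without replicate 4.

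Nfkb1 (ENSMUSG00000028163, chr3:135584655-135691547, minus strand) measured 18.6, 17.7, 16.2, 14.8 and 15.3 CPM in replicates 1 to 5, a mean of 16.5 ± 1.6 CPM (SD, n = 5). It was highest in replicate 1 and lowest in replicate 4, with a highest-to-lowest ratio of 1.26. The same chi-square test gave an adjusted p of 0.00019, or 0.0403 with 2 reads as 1 event. Its length matters for its level: the union of its exons is 12061 bases and its longest transcript 4149 bases, and per longest transcript Nfkb1 had 3.98 RPKM.

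Nfkb2 (ENSMUSG00000025225, chr19:46304320-46312385, plus strand) measured 3.30, 3.35, 3.34, 4.29 and 3.44 CPM in replicates 1 to 5. Replicate 4 stood above the other 4. The CV of Nfkb2 was 8.39%, or 0 without replicate 4 and 0 with 2 reads as 1 event. In the chi-square test its adjusted p was 0.148, or 0.549 with 2 reads as 1 event, so it passed in neither form. Nfkb2 shares 299 exonic bases (6.52% of its exons) with Psd on the opposite strand, a gene with 19235 to 23839 reads, and 531 bases (11.6%) with AC114539.1. The sources used here do not state whether strand was used in counting. The shared bases may therefore add to the reads of Nfkb2 or take from them.

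Among all 5 NF-kB subunit genes, Rela made up 63.2 ± 3.76% of the summed RPKM (SD, n = 5). Nfkb1 made up 12.4 ± 0.769%, Relb 9.88 ± 2.14%, Rel 7.45 ± 1.22% and Nfkb2 7.09 ± 1.4%. Relb and Rel encode the other 2 subunits that carry an activation domain. With the longest transcript in place of all exons, Rela held 52.9% and Nfkb1 26.7%, and Rel and Nfkb2 changed places at the low end. The ratio of Rela to Nfkb2 was 6.05 in replicate 4, against 8.98 to 10.6 in the other libraries, and the ratio of Nfkb1 to Nfkb2 was 1.31 in replicate 4, against 1.69 to 2.14. The ratio of Rela to Nfkb1 kept a narrower range, at 4.73, 5.13, 5.74, 4.62 and 5.31 in replicates 1 to 5.

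Nfkbia (ENSMUSG00000021025, chr12:55489410-55492647, minus strand) measured 13.5, 11.3, 11.5, 14.2 and 15.2 CPM in replicates 1 to 5. Replicates 2 and 3 were low and replicate 5 was highest, at 1.35 times the lowest. Its spread exceeded counting error, with a chi-square adjusted p of 8.5e-07, or 0.00382 with 2 reads as 1 event, and its CV was 12.4%. Per length it had the highest level of the 10 genes, 8.16 ± 1.07 RPKM (SD, n = 5). Its ratio to Rela was 1.15, 0.931, 0.925, 1.56 and 1.4 in replicates 1 to 5, so Nfkbia lay above Rela in 3 libraries and below it in replicates 2 and 3. Among 3 genes for IkB inhibitors, Nfkbia made up 46.0 ± 3.34% of the summed RPKM, Nfkbib 49.4 ± 3.28% and Nfkbie 4.67 ± 0.561% (SD, n = 5 each).

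Promoters of 7 of the 10 genes were read from RefSeq (GRCm38.p6), in 9 windows, and the 250 bases before each start were searched on both strands for the NF-kB consensus. This consensus occurred in 3.90% of the 32851 promoter windows searched. Among the 7 genes it occurred in Nfkb2 (in all of its 3 windows) and Nfkbia, but not in the windows of Rela, Tnfrsf1a, Tnf, Il1b or Icam1. Bases further from the start were not searched, and a site that departs from the consensus would be missed. A simpler form, in which GGG and CC are set apart by any 5 bases and which every consensus match also fits, occurred in 45.8% of all promoters and in every one of the 7 genes except Il1b. A stretch of each gene with the consensus is shown, since these are the subunit and the inhibitor gene whose windows hold it; the capitals mark the matches. The Nfkb2 stretch (chr19:46304688-46304717, plus strand) holds a pair of overlapping matches that begin 39 and 38 bases before the start of 1 of its 3 windows, and a further match 11 bases before that start is not shown. This start lies inside the annotated gene, and the stretch overlaps annotated exons of Nfkb2 and AC114539.1. The Nfkbia stretch (chr12:55492648-55492747, minus strand) holds 1 match, read on the opposite strand, that begins 29 bases before the start.
Nfkb2: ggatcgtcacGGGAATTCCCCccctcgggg
Nfkbia: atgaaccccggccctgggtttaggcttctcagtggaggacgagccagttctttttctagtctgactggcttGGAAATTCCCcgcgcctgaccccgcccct

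Tnfrsf1a (ENSMUSG00000030341, chr6:125349362-125362484, plus strand), the receptor through which TNF activates NF-kB in most cells, measured 9.0, 7.27, 8.03, 9.19 and 6.93 CPM in replicates 1 to 5. Replicates 1 and 4 were highest, and replicate 5 was lowest. Its chi-square adjusted p was 0.00135, but 0.0914 with 2 reads as 1 event, so its spread passed in the first form only. Tnfrsf1a made up 66.4 ± 3.93% of the summed RPKM of the 2 TNF receptor genes (SD, n = 5), and Tnfrsf1b, the other receptor, 33.6%. Its level per length was 3.12 ± 0.389 RPKM (SD, n = 5), and its ratio to Rela was 0.626 in replicate 4, against 0.373 to 0.477 in the other libraries.

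The 3 cytokines had between 0 and 14 reads in each of the 5 libraries. Il1b (ENSMUSG00000027398, chr2:129364570-129371139, minus strand), which encodes interleukin-1 beta, had 4, 10, 8, 14 and 2 reads in replicates 1 to 5, and exceeded 3 reads in 4 libraries. Tnf (ENSMUSG00000024401, chr17:35199381-35202007, minus strand) had 8, 0, 4, 4 and 0 reads, and exceeded 3 reads in 3 libraries. Ccl2 (ENSMUSG00000035385, chr11:82035571-82037453, plus strand), a chemokine that attracts monocytes, had 6, 0, 0, 2 and 2 reads, and exceeded 3 reads in replicate 1 alone. A level of 3 reads was worth 0.0673 to 0.0870 CPM, depending on the library. It is used as a fixed mark and not as the limit that a count of 0 allows. For the libraries at 0 reads, the upper end of the exact Poisson interval was 0.0827 to 0.0965 CPM, or 0.165 to 0.193 CPM with 2 reads as 1 event. Counts of 4 and 6 reads, at 0.0897 to 0.144 CPM, exceeded the mark but lay below the upper ends with 2 reads as 1 event.

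Over the 5 libraries together, Il1b had 38 reads, or 0.191 CPM (95% exact Poisson interval 0.135 to 0.263, or 0.115 to 0.299 with 2 reads as 1 event). Tnf had 16 reads, or 0.0805 CPM (0.0460 to 0.131, or 0.0348 to 0.159), and Ccl2 10 reads, or 0.0503 CPM (0.0241 to 0.0926, or 0.0163 to 0.117). These intervals cover counting error only, and not the spread between libraries. Il1b was highest in replicate 4, at 0.406 CPM, and lowest in replicate 5, at 0.0502 CPM. The exact Poisson intervals of these libraries, 0.222 to 0.681 CPM and 0.00608 to 0.182 CPM, did not overlap, but with 2 reads as 1 event they did (0.163 to 0.836 and 0.00127 to 0.28 CPM). Its chi-square adjusted p was 0.00650, but 0.172 with 2 reads as 1 event, 0.0978 without replicate 4 and 0.0505 without replicate 5. Tnf and Ccl2 averaged under 5 reads and were not tested. Summed, the 3 cytokines had 18, 10, 12, 20 and 4 reads in replicates 1 to 5, so replicate 5 had the fewest. Il1b shares 25 exonic bases (1.31%) with the antisense gene Il1bos, which had at most 6 reads in a library. The 9 microglia markers, none at 0, summed to 379 to 447 CPM.

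**Figure D1:**
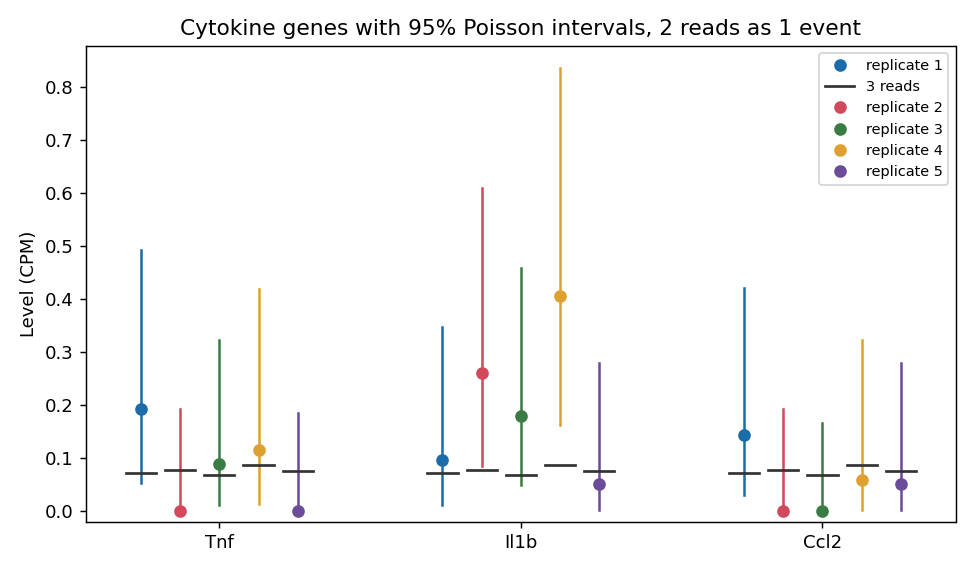
CPM of Tnf, Il1b and Ccl2 in each of the 5 libraries of stressed, vehicle-treated males; coloured lines are 95% Poisson intervals with 2 reads as 1 event, and short black lines mark the level of 3 reads. Il1b exceeds 3 reads in 4 libraries, Tnf in 3 and Ccl2 in 1.

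Vcam1 (ENSMUSG00000027962, chr3:116109949-116129688, minus strand), an endothelial molecule that binds the integrin of Itga4 and Itgb1 on white blood cells, measured 26.3, 21.4, 23.2, 25.2 and 26.5 CPM in replicates 1 to 5. Replicates 2 and 3 were lowest and replicate 5 was highest. The chi-square adjusted p was 1.4e-05, or 0.0133 with 2 reads as 1 event. Its CV was 8.15%, and 5.00% without replicate 2. Per length it had 2.76 ± 0.242 RPKM (SD, n = 5).

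Icam1 (ENSMUSG00000037405, chr9:21015985-21028817, plus strand), which binds leukocyte integrins, measured 4.16, 2.48, 2.53, 3.77 and 3.34 CPM in replicates 1 to 5. Per length it had 0.747 ± 0.171 RPKM (SD, n = 5). Replicates 2 and 3 were again the lowest pair, and replicate 1 was highest, at 1.68 times the lowest. The chi-square adjusted p was 3.8e-05, or 0.0203 with 2 reads as 1 event, and its CV of 21.1% was the largest of the 7 genes of at least 1 CPM. In replicates 2 and 3 the red blood cell markers (5 of 5 in the table) summed to 103 and 114 CPM, against 170 to 193 CPM in the other libraries, and the leptomeningeal and fibroblast markers (9 of 9) to 37.8 and 33.5 CPM, against 58.6 to 99.6 CPM. The 9 endothelial markers, none at 0, summed to 310 and 296 CPM in replicates 2 and 3, against 314 to 347 CPM in the others. Of these markers, Cldn5 was highest in replicate 2, at 47.4 CPM. Microglia, astrocyte, and pericyte and mural marker sums were also lowest in replicates 2 and 3. Neuron markers were lowest in replicate 1, and oligodendrocyte markers were highest in replicate 3. The part of these cells in the spread of Nfkbia, Vcam1 and Icam1 was not tested. Icam1 shares 511 exonic bases (11.7%) with the antisense gene Gm47079, and Vcam1 61 bases (0.688%) with Gm43109.

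Vcam1 lay above Icam1 in every library, with ratios of RPKM of 3.10, 4.24, 4.5, 3.28 and 3.89 in replicates 1 to 5. Among 5 adhesion molecules of the immunoglobulin superfamily, Icam5, the neuronal telencephalin, made up 86.6 ± 1.24% of the summed RPKM, Vcam1 4.67 ± 0.377% and Icam1 1.26 ± 0.276% (SD, n = 5 each).

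**Figure D2:**
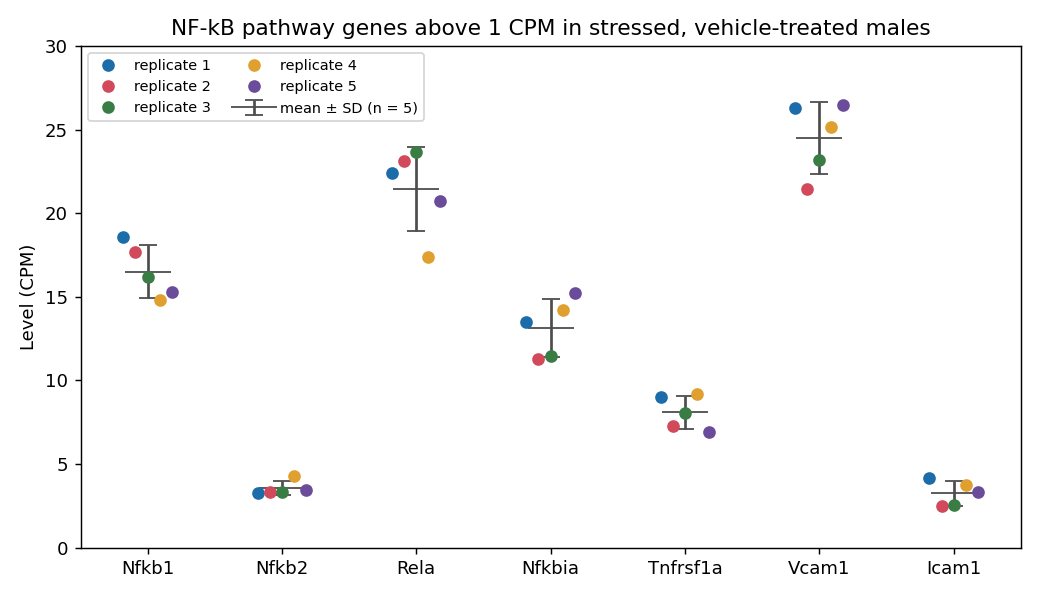
CPM of the 7 genes above 1 CPM in the 5 libraries of stressed, vehicle-treated males, with the mean and SD in grey. Icam1 and Vcam1 are lowest in replicates 2 and 3, Rela is lowest in replicate 4 at 17.4 CPM, and Nfkb2 is highest in replicate 4 at 4.29 CPM.

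Per length, the 10 genes ran in the order Nfkbia, Rela, Tnfrsf1a, Vcam1, Nfkb1, Nfkb2, Icam1, Il1b, Tnf and Ccl2. The ranges of neighbours did not overlap between Rela and Tnfrsf1a (ratio of means 2.24), Vcam1 and Nfkb1 (2.02), Nfkb1 and Nfkb2 (1.77) or Icam1 and Il1b (7.17). They overlapped between Nfkbia and Rela, Tnfrsf1a and Vcam1, Nfkb2 and Icam1, Il1b and Tnf, and Tnf and Ccl2. Of the 5 libraries, the first gene of each pair was higher in 3, 4, 3, 4 and 2, in that order. These differences were not tested. With the longest transcript in place of all exons, 5 of the 10 genes kept their rank. Vcam1, whose exons span 8870 bases against 4088 in its longest transcript, then stood above Tnfrsf1a, at 6.00 against 3.75 RPKM. Nfkb1 also passed Tnfrsf1a, at 3.98 RPKM, and Icam1 passed Nfkb2, at 1.29 against 0.921 RPKM.

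**Figure D3:**
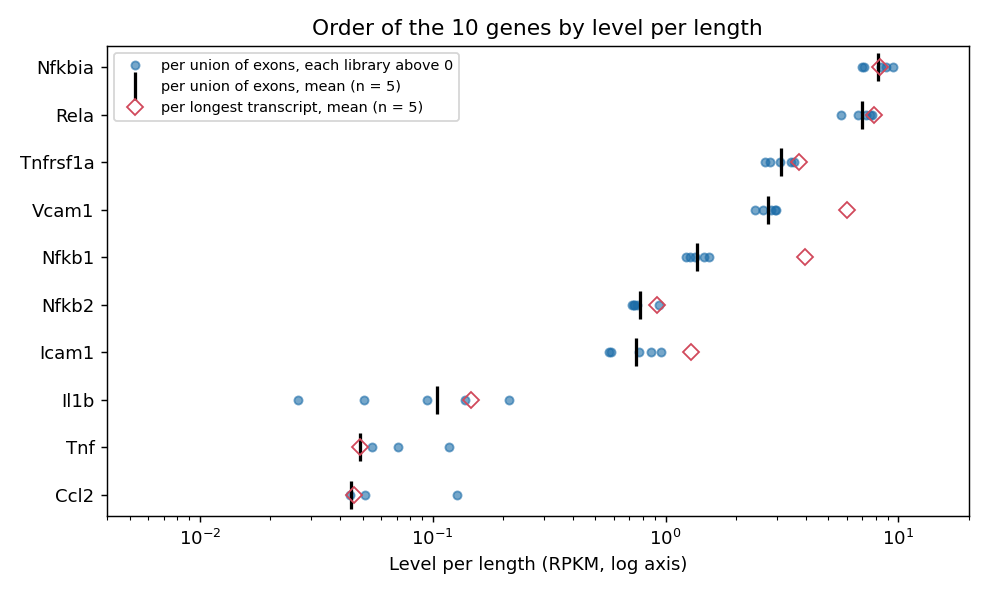
RPKM of the 10 genes on a log axis, in order of their mean, with 1 point per library above 0, a bar at the mean and a diamond at the mean per longest transcript. Nfkbia has the highest mean at 8.16 RPKM and Ccl2 the lowest, and several neighbours overlap.

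Of the 10 genes, 8 had enough reads to be tested for spread beyond counting error, and 7 of these (87.5%) passed, with 74.4% of all 19239 genes tested passing. With 2 reads as 1 event, 5 of 8 passed (62.5%), against 45.5% of all genes, and 3 to 4 passed when a library was also left out (3 without replicate 1, 2 or 4). With all 5 libraries, the 5 that passed in both forms were Nfkb1, Rela, Nfkbia, Vcam1 and Icam1. The 7 genes of at least 1 CPM had a median CV of 11.1%, against a median of 8.25% (quartiles 5.18 and 13.5%) over 14524 genes of at least 1 CPM. With 2 reads as 1 event, these medians were 9.63% and 7.16%. With 8 genes tested, these shares describe the genes and were not tested against the background.

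**Figure D4:**
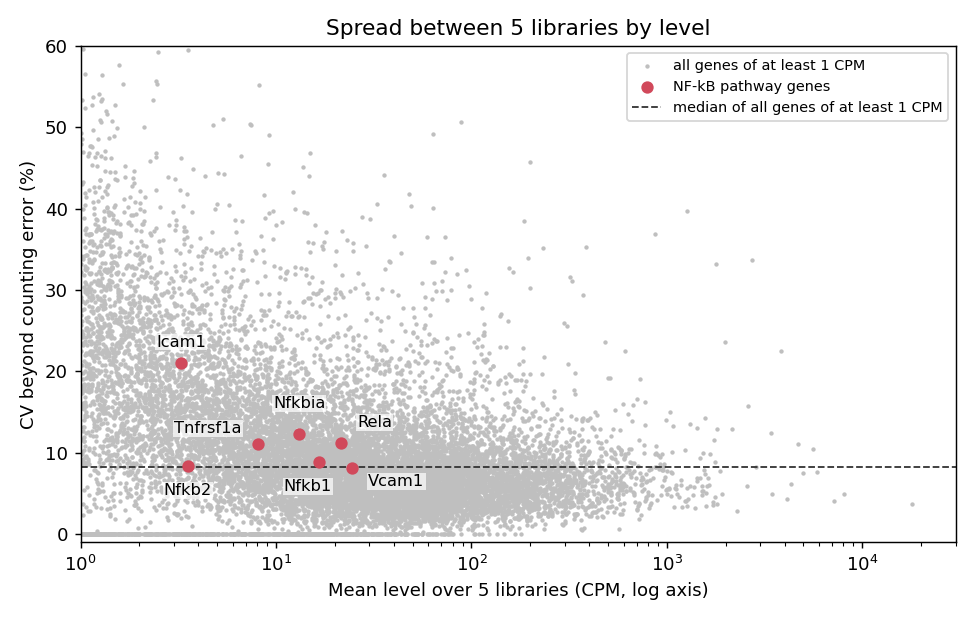
CV beyond counting error (%) against mean CPM (log axis) for the genes of at least 1 CPM, with the 7 NF-kB pathway genes of that level labelled and the median of all genes (8.25%) as a dashed line. Icam1 lies highest of them at 21.1%, and 28 genes lie above the axis limit. Each read is counted as 1 event.

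The libraries did not rank the genes alike. Replicate 4 was highest for Nfkb2 and Tnfrsf1a but lowest for Nfkb1 and Rela. Replicate 2 was lowest for Nfkbia, Vcam1 and Icam1, and replicate 5 was highest for Nfkbia and Vcam1 but lowest for Tnfrsf1a. On the log2 scale, relative to the mean over libraries, Icam1 differed by 0.38, -0.36, -0.33, 0.24 and 0.07 in replicates 1 to 5, and Rela by 0.07, 0.12, 0.15, -0.29 and -0.04. In replicate 4, the neutrophil markers differed by 1.18 and the oligodendrocyte markers by -0.52 on that scale. Their part in the low Rela and high Nfkb2 of this library was not tested. The spread of Nfkb2 itself did not exceed counting error in either form of the chi-square test.

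**Figure D5:**
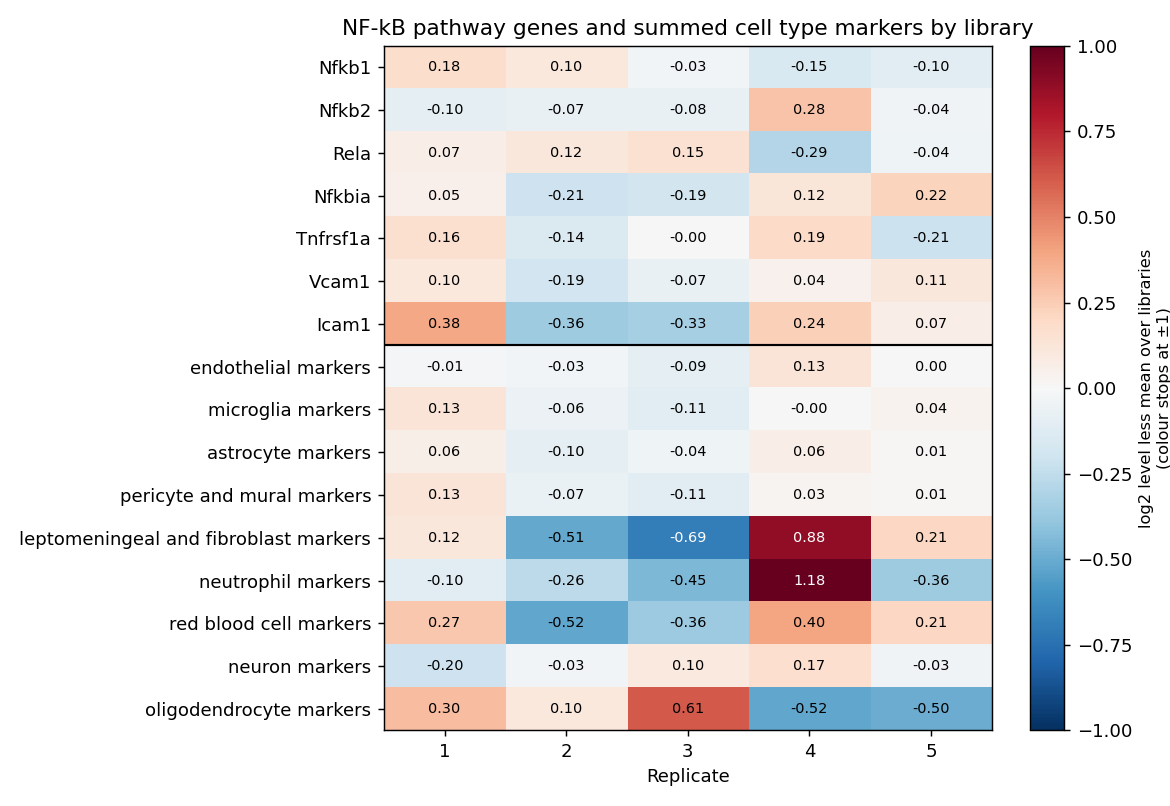
Heat map of log2 differences from the mean over the 5 libraries for the 7 genes of at least 1 CPM and for summed cell type markers. Replicate 4 is low for Rela (-0.29) and high for Nfkb2 (0.28), neutrophil markers (1.18) and leptomeningeal markers (0.88).

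Of the rest of the pathway, all 9 other subunits, inhibitors and regulators were above 3 reads in every library and exceeded counting error, 6 of them also with 2 reads as 1 event. These counts and those of the lists that follow stand beside the 74.4% of all genes tested that passed, or 45.5% with 2 reads as 1 event, and no list was tested against these shares. The highest by CPM, a scale not corrected for length, was Nkrf, a repressor of NF-kB target genes, at 25.5 ± 2.98 CPM (SD, n = 5), then Nfkbib at 18.9 ± 1.71 CPM. Nfkbid, a nuclear IkB family gene, had the largest CV of those of at least 1 CPM, with 4.19, 2.17, 2.02, 1.45 and 2.96 CPM in replicates 1 to 5. Among 11 IkB kinase and upstream kinase genes, 9 exceeded counting error, or 5 with 2 reads as 1 event. Map3k7, which encodes the kinase TAK1, averaged 63.7 ± 3.73 CPM, Tab2, its adapter, 56.7 ± 2.47 CPM, Tbk1, a kinase related to the IkB kinases, 47.6 ± 1.98 CPM, and Map3k14, the kinase NIK of the noncanonical pathway, 3.85 ± 0.629 CPM. Among 10 TNF receptor signalling genes the counts were 7 and 3, with Madd, a death-domain protein that binds the TNF receptor, at 309 ± 18.1 CPM, Adam17, the protease that releases TNF, at 18.4 ± 1.39 CPM, Birc2, a ubiquitin ligase, at 28.9 ± 2.30 CPM and Traf5, an adapter, at 3.21 ± 0.545 CPM. Among 14 interleukin-1 and Toll receptor signalling genes the counts were 12 and 8. There Tollip, an inhibitory adapter, averaged 162 ± 7.51 CPM, Irak1, a receptor-associated kinase, 53.4 ± 3.5 CPM, and Il1rap, the accessory chain of the interleukin-1 receptor, 44.3 ± 3.59 CPM. Tlr4, the receptor for lipopolysaccharide, had the largest CV of those of at least 1 CPM, at 1.14 ± 0.546 CPM with 2.06 CPM in replicate 4.

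Of 9 negative feedback genes, 5 exceeded counting error, or 2 with 2 reads as 1 event, beside 74.4% and 45.5% of all genes tested. Cyld, a deubiquitinase, averaged 129 ± 14.4 CPM, and Peli1, a ubiquitin ligase, 31.0 ± 1.4 CPM. Among 23 other cytokines and chemokines, 19 were in the table, 8 of which had 0 reads in at least 1 library. The 11 above 3 reads in every library were Il1a, Il12a, Il18, Ltb, Tnfsf10, Tgfb1, Csf1, Cxcl12, Cx3cl1, Il33 and Il34. Cx3cl1, a chemokine made by neurons, averaged 731 ± 55.5 CPM, Il34, a ligand of the microglial receptor Csf1r, 50.6 ± 4.53 CPM, and Cxcl12 80.9 ± 5.06 CPM. Il33, an alarmin of glia, averaged 43.7 ± 11.4 CPM and was highest in replicate 3, at 60.1 CPM, and lowest in replicate 5, at 32.4 CPM. Il1a, which encodes the other main interleukin-1 ligand, averaged 0.597 ± 0.192 CPM, and Ltb 0.401 ± 0.133 CPM.

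Of 17 other adhesion molecules and their partners, all exceeded counting error, 12 of them also with 2 reads as 1 event, beside 74.4% and 45.5% of all genes tested. Among these Itgb1 averaged 64.0 ± 2.61 CPM and Itga4, which pairs with it to bind Vcam1, had the largest CV of those of at least 1 CPM, with 6.40, 4.47, 3.72, 8.58 and 6.2 CPM in replicates 1 to 5. Replicates 2 and 3 were lowest for Itga4, as they were for Vcam1. Of 13 other NF-kB target genes, 11 exceeded counting error, or 10 with 2 reads as 1 event, beside the same shares. Sod2, a mitochondrial superoxide dismutase, averaged 138 ± 14.4 CPM. Lcn2, an acute-phase gene, had the largest CV of those of at least 1 CPM, with 2.12, 0.471, 0.224, 5.92 and 1.56 CPM in replicates 1 to 5. Replicate 4, where Lcn2 was highest, also had the highest neutrophil, leptomeningeal and red blood cell marker sums. Endothelial, astrocyte, neuron and choroid plexus marker sums were highest there too. The part of these cells in the spread of Lcn2 was not tested.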

How the data were processed

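RNA of mouse PFC was sequenced in 25 samples of 6 groups. Per the submitters' processing notes, STAR 2.6.1d, SAMtools 1.9, featureCounts of Subread 1.6.3 and edgeR were used, with the builds mm10 and GRCm38. The deposited values are log2 CPM in 1 table. They equal log2 of reads plus 0.5 over an effective library size, a form inferred from the values, and all values gave whole reads within 1e-06. Only 5 of 25 columns could be tied to labelled samples, so 20 were not used and the planned tests between groups were not run.

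Reads, CPM and RPKM (GENCODE M21 exon lengths) were computed with Python 3.11.15. A chi-square test per gene asked whether reads departed from proportionality to effective size. Benjamini-Hochberg adjustment, at 0.05, was over genes averaging 5 reads or more. The test was also run on simulated data in which few genes varied, unlike these data, where 74.4% of genes tested passed. Counting 2 reads as 1 event was added after the low numbers were seen to be mostly even. Other settings were the read minimum, the scaling, exon length and each library left out. The members and lists were chosen with earlier results of these data known. Named genes were the members and, from each list, the 3 of highest CPM, the most variable gene of at least 1 CPM and each cytokine above 3 reads in every library, from which examples are given.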

Additional observations from a re-analysis of the deposited data

Results flagged for a closer look

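Among 60 items (genes named above and marker sums) examined for a library far from the other 4, 3 were flagged. Chance at 1 in 20 would also flag 3. Some of the genes were chosen for a large CV, so that rate is only a guide. Nfkb2 had 4.29 CPM in replicate 4, 1.28 times the mean of 3.36 CPM of the other libraries. Its spread over the 5 libraries did not exceed counting error in either form of the chi-square test. Bcl2l1, a survival gene and NF-kB target, had 92.8 CPM in replicate 4, against a mean of 107 CPM in the others. The neutrophil marker sum was 24.7 CPM in replicate 4, against a mean of 8.96 CPM in the others. All 3 fall in replicate 4, which also had the highest leptomeningeal, red blood cell, endothelial, astrocyte, neuron and choroid plexus marker sums. Whether the mixture of cells in that library plays a part was not tested.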

How the results depend on the processing

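No paired analysis was possible because columns of a single group were used. The planned tests between groups were not run. With 2 reads as 1 event, 8753 genes in place of 14308 exceeded counting error, and 5 genes of the 10 in place of 7. In that form, leaving out replicates 1 to 5 in turn gave 7398, 8011, 7663, 7326 and 7929 genes and 3 to 4 of the 10 genes (3 without replicate 1, 2 or 4). With each read as 1 event, leaving out a library gave 12646 to 13125 genes and 6 to 7 of the 10. A minimum of 20 mean reads gave 12693 genes and 6 of the 10, and no minimum 15862 and 9, with Tnf (adjusted p of 0.017 by the chi-square test) and Ccl2 (0.034) added; with 2 reads as 1 event these were 0.269 and 0.347. Nfkb1, Rela, Nfkbia, Vcam1 and Icam1 passed and Nfkb2 did not under the 11 settings of read minimum, scaling, omitted library and 2 reads as 1 event that were run without combining them. Tnfrsf1a was lost with 2 reads as 1 event, and Il1b there and without replicate 4 or 5. By longest transcript, 5 of 10 genes kept their rank, and 6 to 10 did on leaving out a library, with 6 without replicate 3. Depth limits the cytokines, which had 0 to 14 reads in a library.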

Other observations

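Some adhesion and chemokine receptor genes of the lists, named here after their values were seen, differed widely between the 5 libraries. Sele, which encodes E-selectin of activated endothelium, had 26, 2, 2, 28 and 4 reads in replicates 1 to 5. Selp, which encodes P-selectin of platelets and endothelium, had 24, 0, 0, 4 and 4 reads. Ccr2, the receptor of the Ccl2 protein, had 22, 4, 4, 28 and 30 reads. All 3 were lowest in replicates 2 and 3, where Icam1 was also lowest. Itga4, Itgal and Itgb2 of the adhesion list were also lowest in replicates 2 and 3. Not every gene of that list shared this. Madcam1 had 2, 8, 13, 2 and 6 reads in replicates 1 to 5. Jam3 had 42.9 and 44.8 CPM in replicates 2 and 3, against 47.5, 30.1 and 35.1 CPM in replicates 1, 4 and 5. Il6, an NF-kB target cytokine, had 0, 2, 0, 0 and 4 reads. In each library, 310 to 447 genes had exactly 1 read and 1173 to 1301 had exactly 2 reads.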
